A study of Mus musculus with 4 samples.

Results

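The 8 genes described here are the TGF-beta ligands Tgfb1, Tgfb2 and Tgfb3, the receptors Tgfbr1 and Tgfbr2, the receptor-activated Smads Smad2 and Smad3 and the inhibitory Smad7. They were taken by symbol from the 18674 gene names of a lumbar spinal cord RNA-seq table, and all 8 were found. The table has 4 libraries, 1 for each combination of genotype (WT or G93A) and treatment (vehicle or SD), called WT vehicle, G93A vehicle, WT + SD and G93A + SD. G93A mice carry a mutant human SOD1 transgene driven by its own promoter and develop a motor neuron disease that models ALS, and SD is spermidine, a natural polyamine. The mice were 100 days old and had received SD or PBS for 30 days, 4 times a week, and the labels enter the treatment of both vehicle groups as none. The dose in the section on administration is 5 mg/kg by intraperitoneal injection, with saline as the vehicle. The line is the high-expressing H1 one, on a B6/SJLF1 background, and the treated animals were males. The number of mice behind a library is not given, so differences between conditions cannot be set against a spread of replicates, and no p-value is given. For each genotype, values are given for the vehicle library and then for the SD library. A difference is called here when the level differed at least 1.5-fold between 2 libraries, on the scale log2(RPKM + 0.1), where RPKM is a read count scaled to transcript length and library size.

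TGF-beta is secreted as a latent dimer that is stored in the matrix or on cell surfaces and is released by integrins and proteases. The active ligand binds the type II receptor (Tgfbr2), which recruits and phosphorylates the type I receptor (Tgfbr1). Tgfbr1 in turn phosphorylates Smad2 and Smad3, which join Smad4 and move to the nucleus, while Smad7 is induced by the pathway and blocks the receptors. In the central nervous system Tgfb1 is made largely by microglia and is needed for their mature identity, whereas Tgfb2 and Tgfb3 are made by neurons and astrocytes.

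In G93A cord, Tgfb1, Tgfb2, Tgfbr1, Tgfbr2 and Smad3 were at least 1.5-fold above WT both under vehicle and under SD, whereas Tgfb3, Smad2 and Smad7 were not. The RefSeq sequences of the 250 bases before the start of these 5 genes are shown because their levels differed together between the genotypes. All are given 5′ to 3′ on the strand of the gene, on GRCm38.p6. They lie at chr7:25686752-25687001 on the plus strand for Tgfb1, chr1:186705990-186706239 on the minus strand for Tgfb2, chr4:47352972-47353221 on the plus strand for Tgfbr1, chr9:116175364-116175613 on the minus strand for Tgfbr2 and chr9:63757995-63758244 on the minus strand for Smad3. Capitals mark CAGAC, the core to which Smad3 and Smad4 bind, searched on both strands.
Tgfb1: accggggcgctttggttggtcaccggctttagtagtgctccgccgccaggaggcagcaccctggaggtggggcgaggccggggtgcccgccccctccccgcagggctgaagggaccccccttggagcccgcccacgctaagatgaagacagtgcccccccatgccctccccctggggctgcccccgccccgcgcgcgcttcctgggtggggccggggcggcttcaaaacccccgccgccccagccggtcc
Tgfb2: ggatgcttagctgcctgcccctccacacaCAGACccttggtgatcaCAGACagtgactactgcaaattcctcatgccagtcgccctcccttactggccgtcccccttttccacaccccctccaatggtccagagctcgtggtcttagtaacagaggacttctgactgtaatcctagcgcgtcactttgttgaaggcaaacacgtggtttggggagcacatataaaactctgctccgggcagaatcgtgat
Tgfbr1: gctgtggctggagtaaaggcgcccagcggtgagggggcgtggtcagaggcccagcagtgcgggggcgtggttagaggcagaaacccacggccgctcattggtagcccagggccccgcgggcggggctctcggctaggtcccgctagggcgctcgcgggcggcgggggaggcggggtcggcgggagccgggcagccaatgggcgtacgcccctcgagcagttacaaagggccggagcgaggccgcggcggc
Tgfbr2: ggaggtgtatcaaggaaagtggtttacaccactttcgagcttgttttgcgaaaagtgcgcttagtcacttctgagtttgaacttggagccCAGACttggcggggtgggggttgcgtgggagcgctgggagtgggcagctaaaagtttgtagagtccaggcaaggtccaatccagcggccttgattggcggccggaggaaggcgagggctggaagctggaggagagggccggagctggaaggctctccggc
Smad3: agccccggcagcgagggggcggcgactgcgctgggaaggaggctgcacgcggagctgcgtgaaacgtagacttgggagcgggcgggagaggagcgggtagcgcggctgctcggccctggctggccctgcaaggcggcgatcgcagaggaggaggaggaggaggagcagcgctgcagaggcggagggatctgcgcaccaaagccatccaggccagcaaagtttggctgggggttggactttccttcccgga

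CAGAC was found at 221 and 204 bases before the start of Tgfb2 and at 160 bases before that of Tgfbr2, and not in the other windows printed. It occurs in 42.2% of the 32851 promoter windows of the same length, against 2 of the 5 printed here. GTCTAGAC (a palindromic Smad site, in 0.167% of windows), TGANTCA (AP-1, in 6.75%) and GAGGAAGT (PU.1, in 2.44%) were not found in these windows. No match of CAGAC therefore overlapped another motif searched. The bases G and C made up 75.2% of the window of Tgfb1, 74.8% of that of Tgfbr1, 69.2% of that of Smad3, 58.4% of that of Tgfbr2 and 53.6% of that of Tgfb2, against a median of 52.4% over all windows. A second start listed for Tgfbr1 has 1 CAGAC, at 203 bases.

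Depth was not given in the table and was estimated, in units of 1e+06 read pairs, at 36.8 and 38.3 for the WT libraries and 38.0 and 38.6 for the G93A libraries. Between the WT libraries 90% of the 12987 names with a mean of at least 1 RPKM differed by at most 0.27 on the log2 scale, and between the G93A libraries by at most 0.33. All 8 members had a mean of at least 1 RPKM. The lumbar position was checked on 5 Hox genes (Hoxc9, Hoxd9, Hoxa10, Hoxc10 and Hoxd10), which summed to 43.9 and 43.8 RPKM in WT and 31.6 and 29.4 RPKM in G93A. Of these 5, 1 was called lower in G93A under vehicle and 2 under SD, as were 4.34% and 7.85% of the 12987 names. In contrast, 3 forebrain genes (Emx1, Tbr1 and Neurod6) summed to between 1.27 and 1.68 RPKM, nearly all from Neurod6. The human transgene is not among the mouse transcripts of the table, so that the genotype labels could not be checked on it.

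The first question was how the ligands differed between G93A and WT mice. Tgfb1 (chromosome 7, 25687002 to 25705077, plus strand, 7 exons) had 1.70 and 1.49 RPKM in the WT libraries and 7.45 and 7.63 RPKM in the G93A libraries. Both G93A libraries lay far above both WT libraries, and the libraries of each genotype lay close to each other. The ratio of G93A to WT was 4.39 under vehicle and 5.11 under SD, with log2 fold changes of 2.07 and 2.28. Of the 12987 names, called all names from here on, 2.16% were as far above WT as Tgfb1 under vehicle, and 2.40% under SD. An estimated 136 and 124 read pairs stood behind the WT values and 615 and 641 behind the G93A values, which made Tgfb1 the least sampled member.

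Tgfb2 (chromosome 1, 186622792 to 186705989, minus strand, 7 exons) encodes the isoform best known for roles in development. Its level was 3.57 and 3.55 RPKM in the WT libraries and 7.35 and 9.35 RPKM in the G93A libraries. The WT libraries were nearly equal, and both G93A libraries were higher, with a ratio of G93A to WT of 2.06 under vehicle (log2 fold change 1.02) and 2.64 under SD (log2 fold change 1.37). Tgfb3 (chromosome 12, 86056745 to 86079041, minus strand, 7 exons) had 5.97 and 7.88 RPKM in the WT libraries and 7.10 and 7.59 RPKM in the G93A libraries. Its highest and its lowest library were both WT, so that the genotypes overlapped. The log2 fold change of Tgfb3 was 0.25 under vehicle and -0.05 under SD. The gene span of Tgfb3 overlaps that of Ttll5 on the opposite strand, with no shared window of transcript. Of the 53-base windows of the Tgfb3 transcript, 8.62% also occur in the annotated transcripts Gm37804 and Gm48008 on the opposite strand, and whether reads were assigned by strand is not given, so that reads of these genes cannot be told apart. For Tgfb2, 0.553% of windows occur in other genes.

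Because RPKM is scaled to transcript length, the ligands can be set side by side. In WT vehicle Tgfb3 made up 53.1% of the summed ligand level of 11.2 RPKM, Tgfb2 31.8% and Tgfb1 15.1%. In WT + SD the order was the same, with Tgfb3 at 61.0% of 12.9 RPKM. In G93A vehicle the sum was 21.9 RPKM and the ligands were at nearly equal levels, with 34.0% for Tgfb1, 33.6% for Tgfb2 and 32.4% for Tgfb3. In G93A + SD the sum was 24.6 RPKM, of which Tgfb2 made up 38.1%, Tgfb1 31.1% and Tgfb3 30.9%.

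**Figure D1:**
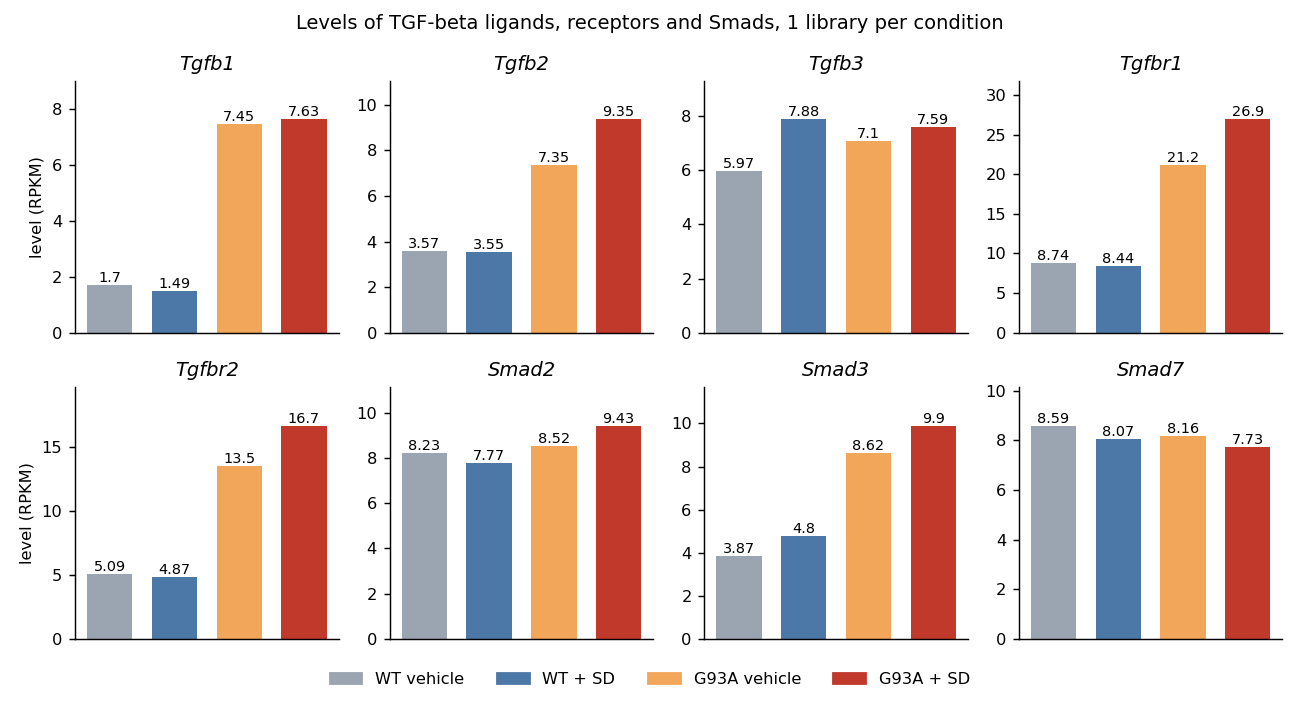
Levels of the 8 genes in RPKM (y axis, from 0, with its own range in each panel), 1 bar per library. Tgfb1, Tgfb2, Tgfbr1, Tgfbr2 and Smad3 have both G93A bars above both WT bars by at least 1.5-fold, and Smad7 lies between 7.73 and 8.59 RPKM in all 4 libraries.

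The receptors were the most abundant members in G93A cord. Tgfbr1 (chromosome 4, 47353222 to 47414931, plus strand, 9 exons), the type I receptor kinase, had 8.74 and 8.44 RPKM in the WT libraries and 21.2 and 26.9 RPKM in the G93A libraries. The WT libraries were nearly equal and the lower of the G93A libraries was 2.41-fold above the higher WT library, on the log2 scale with its pseudocount. The log2 fold change of Tgfbr1 was 1.27 under vehicle and 1.66 under SD. Tgfbr2 (chromosome 9, 116084293 to 116175360, minus strand), the ligand-binding type II receptor, had 5.09 and 4.87 RPKM in the WT libraries and 13.5 and 16.7 RPKM in the G93A libraries as the mean of its 2 rows. Its log2 fold change was 1.39 under vehicle and 1.76 under SD, so that its groups stood apart in the same way. The 2 rows of Tgfbr2 are RefSeq transcripts whose values were in a ratio of 1.013 or 1.014 in every library, so they give no separate account of the isoforms.

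The ratio of the Tgfbr1 level to the Tgfbr2 level was 1.72 and 1.73 in the WT libraries and 1.58 and 1.61 in the G93A libraries. Their summed level was 13.8 and 13.3 RPKM in WT and 34.7 and 43.6 RPKM in G93A. Between 0.647% (the longer row of Tgfbr2) and 0% (the other row and Tgfbr1) of 53-base windows of the receptor transcripts occur in other genes.

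Smad3 and Smad2, which carry the signal to the nucleus, differed from each other. Smad3 (chromosome 9, 63646767 to 63757994, minus strand, 9 exons) had 3.87 and 4.80 RPKM in the WT libraries and 8.62 and 9.90 RPKM in the G93A libraries. Both G93A libraries were above both WT libraries, although the WT libraries themselves lay 24.2% apart. The log2 fold change of Smad3 was 1.14 under vehicle and 1.03 under SD. Smad2 (chromosome 18, 76241580 to 76310963, plus strand, 11 exons) had 8.23 and 7.77 RPKM in the WT libraries and 8.52 and 9.43 RPKM in the G93A libraries. Its G93A libraries were above its WT libraries by as little as 3.5%, and its log2 fold changes of 0.05 and 0.28 were not called. The level of Smad2 was 2.13 and 1.62 times that of Smad3 in the WT libraries, against 0.99 and 0.95 times in the G93A libraries.

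Smad7 (chromosome 18, 75367529 to 75395935, plus strand, 4 exons), the feedback inhibitor, had 8.59 and 8.07 RPKM in the WT libraries and 8.16 and 7.73 RPKM in the G93A libraries. The genotypes overlapped. The log2 fold change of Smad7 was -0.07 under vehicle and -0.06 under SD, and of all names 82.1% and 86.9% differed by at least as much in these comparisons. The ratio of Smad7 to Smad3 was 2.22 and 1.68 in WT and 0.95 and 0.78 in G93A, where Smad3 was the called gene.

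In all, 5 of the 8 members were called higher and 0 lower in G93A vehicle against WT vehicle, where 13.1% of names were higher and 4.34% lower. The same 5 were called in G93A + SD against WT + SD, which shares no library with the comparison under vehicle, and there 15.8% of names were higher and 7.85% lower. All 5 had both G93A libraries at least 1.5-fold above both WT libraries, as did 10.7% of names, while 2.61% of names were below in the same way. The median log2 fold change over the members was 1.08 under vehicle and 1.20 under SD, against 0.05 over all names in both comparisons. The genes were chosen with earlier results of these data known, so their share is not independent evidence. From whole-tissue RNA, more cells of a type and more RNA per cell cannot be told apart.

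**Figure D2:**
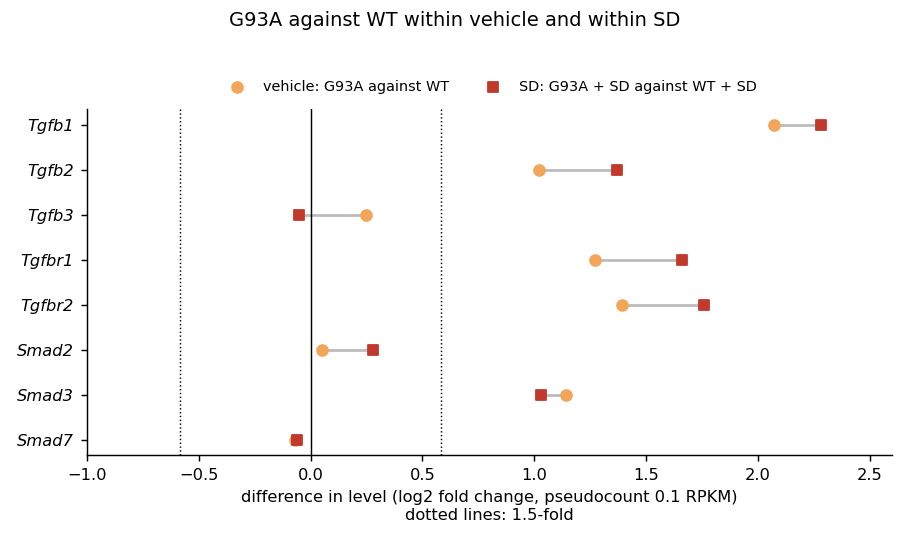
Log2 fold changes (x axis, pseudocount of 0.1 RPKM) of G93A against WT for the 8 genes, under vehicle (circles) and under SD (squares), with 1 library on each side of a comparison. The 5 called genes lie to the right of the dotted 1.5-fold line in both comparisons, from 1.02 for Tgfb2 to 2.28 for Tgfb1, and Tgfb3, Smad2 and Smad7 lie within the dotted lines.

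Marker genes of the cell types in the cord also differed between the genotypes. Beside the counts below, 13.1% of all names were higher and 4.34% lower under vehicle, and 15.8% and 7.85% under SD. Of 10 genes of microglia and macrophages, 8 were called higher and 0 lower in G93A vehicle, and 9 and 0 in G93A + SD. Their summed level was 89.5 and 80.9 RPKM in the WT libraries and 479 and 478 RPKM in the G93A libraries, with no marker at 0, and the ratio of sums was 5.35 under vehicle and 5.91 under SD. Of 7 astrocyte genes, 4 and 5 were called higher and none lower, and the sum was 1714 and 1569 RPKM in WT against 3830 and 4328 RPKM in G93A. Gfap alone gave 441 and 386 RPKM of these sums in WT and 2269 and 2707 RPKM in G93A. Slc1a2 and Aldoc had log2 fold changes of -0.01 and 0.08 under vehicle and 0.14 and 0.11 under SD. Markers of neurons went the other way, with sums of 2140 and 2151 RPKM in WT and 1328 and 1084 RPKM in G93A. Motor neuron genes summed to 79.1 and 71.9 RPKM in WT and to 60.3 and 44.2 RPKM in G93A.

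Tgfb1 stood at 1.90 and 1.84 RPKM per 100 RPKM of the microglial list in WT and at 1.56 and 1.60 RPKM in G93A, while the median log2 fold change over the list was 1.98 under vehicle and 2.42 under SD, against 2.07 and 2.28 for Tgfb1. The list was uneven under vehicle, with log2 fold changes of 4.47 for Cd68, 3.83 for Tyrobp and 3.59 for Trem2 but 0.58 for Tmem119 and 0.07 for P2ry12. Tgfbr1 went from 9.78 and 10.4 per 100 RPKM of that list in WT to 4.43 and 5.62 in G93A, and Tgfbr2 from 5.69 and 6.02 to 2.81 and 3.50. Per 100 RPKM of the astrocyte list, Tgfbr1 stood at 0.510 and 0.538 RPKM in WT and 0.554 and 0.621 RPKM in G93A, and Tgfbr2 at 0.297 and 0.310 RPKM in WT and 0.351 and 0.387 RPKM in G93A. On that same scale Tgfb2 stood at 0.208 and 0.226 RPKM in WT and 0.192 and 0.216 RPKM in G93A, and Smad3 at 0.226 and 0.306 RPKM in WT and 0.225 and 0.229 RPKM in G93A, with overlapping genotypes for both, and Tgfb1 at 0.0989 and 0.0952 RPKM in WT and 0.194 and 0.176 RPKM in G93A. Gfap gave the largest part of the astrocyte sum in G93A, so values per 100 RPKM of that list are not levels per astrocyte. The part of the cell types in the levels of the members was not tested.

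**Figure D3:**
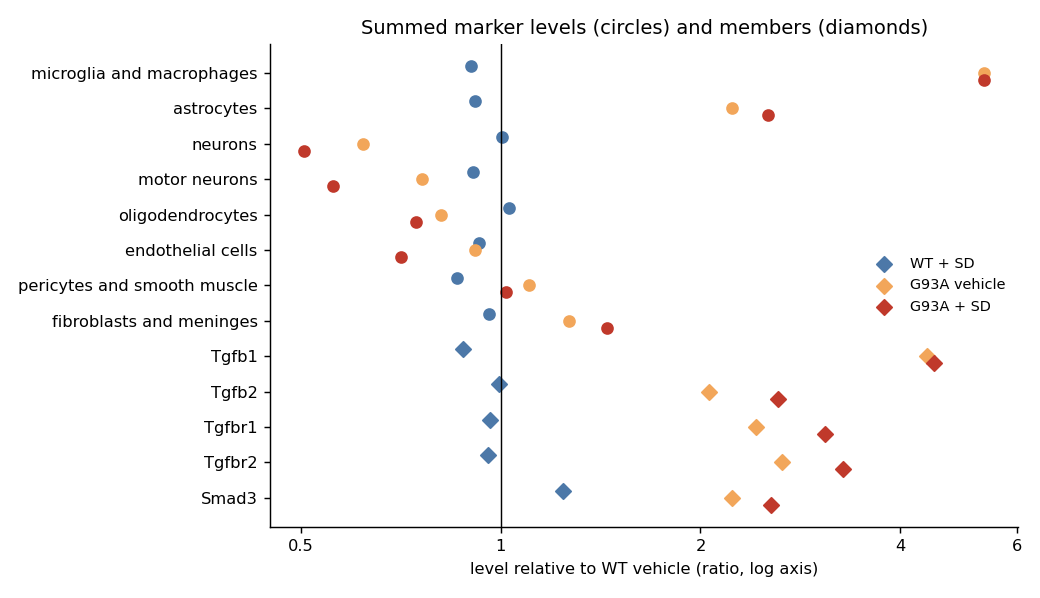
Summed levels of marker lists (circles) and levels of the 5 called members (diamonds) as a ratio to WT vehicle on a log axis, 1 point per library. The microglial sum lies above 5 in both G93A libraries, at nearly the same ratio, Tgfb1 lies above 4 there, and the sums of neurons and motor neurons lie below 1 there.

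The comparisons of SD with vehicle asked whether the treatment moved these genes within a genotype. They share libraries with the comparisons above. In WT, 0 of the 8 members were called, where 0.732% of names were higher and 1.16% lower. In G93A, again 0 were called, where 1.24% of names were higher and 0.932% lower. The largest differences in WT were those of Tgfb3, which was 31.9% higher with SD (log2 fold change 0.39), and Smad3, which was 24.2% higher (log2 fold change 0.31). Of all names, 4.47% differed as much as Tgfb3 and 7.78% as much as Smad3. The other 6 members differed by -0.8% (Tgfb2) to -11.9% (Tgfb1). The blood markers Hba-a1, Hbb-b1 and Alas2 were all called higher in WT + SD than in WT vehicle. Their sum was 17.8 RPKM without and 35.7 RPKM with SD in WT, and 26.5 and 28.8 RPKM in the G93A libraries. Between the genotypes, 2 of 3 were called higher in G93A under vehicle (13.1% of all names) and 0 under SD (15.8%). The part of blood in the SD values and in the comparisons of the genotypes was not tested.

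In G93A, 7 of the 8 members were higher with SD by some amount, none of it called, as were 52.1% of all names by any amount. Tgfb2 was 27.1% higher, Tgfbr1 26.8%, Tgfbr2 24.4%, Smad3 14.8%, Smad2 10.7%, Tgfb3 6.9% and Tgfb1 2.5%, whereas Smad7 differed by -5.3%. Of all names, 8.89% differed as much as Tgfb2, 8.90% as much as Tgfbr1 and 11.0% as much as Tgfbr2. The median log2 fold change over the members was 0.17, against 0.01 over all names. The summed microglial level was 479 RPKM without and 478 RPKM with SD, while the astrocyte sum was 1.13 times as high and the motor neuron sum 0.73 times as high with SD. Their part in the values was not tested.

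Levels that were lowest in WT + SD, then WT vehicle, then G93A vehicle, and highest in G93A + SD, were found for 5 of the 8 members (Tgfb1, Tgfb2, Tgfbr1, Tgfbr2 and Smad2) and for 14.2% of names. For the called genes the steps within a genotype were small beside the step between the genotypes. In Tgfb1, Tgfb2, Tgfbr1, Tgfbr2 and Smad2 the WT pair differed by no more than 0.17 on the log2 scale, below the 0.27 that held 90% of names, so that the order within WT is not a difference beyond the spread of names. The SD difference in G93A passed the limit of 0.33 for Tgfb2 and Tgfbr1 only, both at 0.34.

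**Figure D4:**
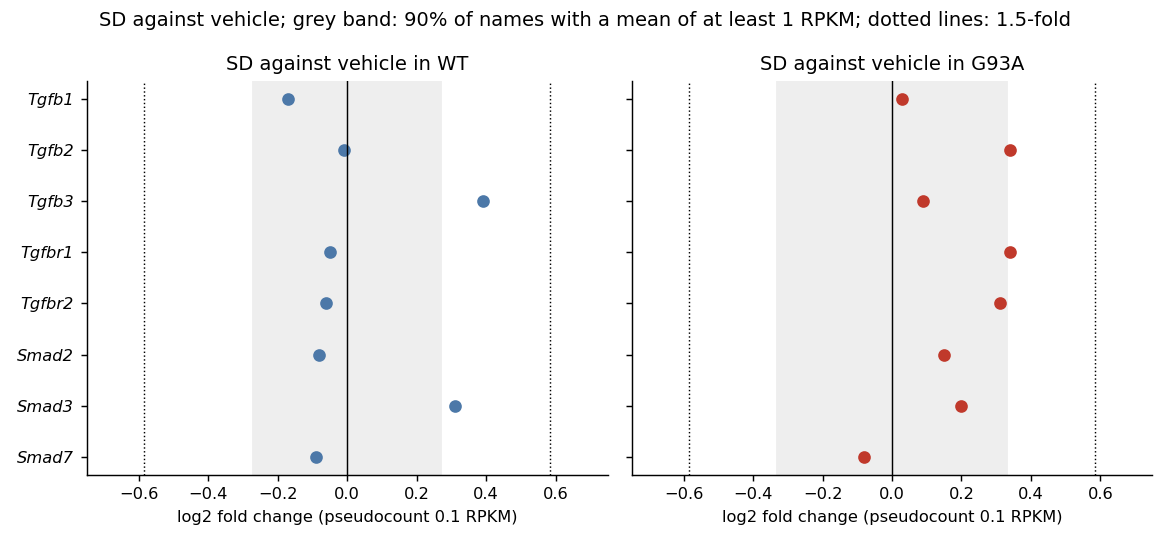
Log2 fold changes of SD against vehicle (x axis, pseudocount of 0.1 RPKM) for the 8 genes in WT (left) and G93A (right), 1 library on each side. The grey band holds 90% of names (0.27 in WT, 0.33 in G93A). Tgfb3 and Smad3 lie outside it in WT, Tgfb2 and Tgfbr1 at its edge in G93A, and no gene reaches the dotted 1.5-fold lines.

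The wider pathway was described with 6 lists of other genes, 61 in all, of which 54 had a mean of at least 1 RPKM. Of these 54, 16 were called higher and 1 lower in G93A vehicle against WT vehicle, and 22 and 3 in G93A + SD against WT + SD. Of all names, 13.1% were higher and 4.34% lower under vehicle, and 15.8% and 7.85% under SD. Both G93A libraries were at least 1.5-fold above both WT libraries for 15 and below for 1, as for 10.7% and 2.61% of all names. The median log2 fold change was 0.28 under vehicle and 0.41 under SD. The filter keeps genes such as Nrros and Bambi only through their G93A libraries, and Acvr2b only through its WT libraries.

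The genes for latency, storage and activation of the ligand numbered 13 with a mean of at least 1 RPKM. Of these, 7 of 13 were called higher under vehicle and 10 of 13 under SD, against 13.1% and 15.8% of all names, and 0 were lower. Itgb5, an integrin subunit that pairs with Itgav to bind latent TGF-beta, had 15.1 and 14.5 RPKM in WT and 53.2 and 54.2 RPKM in G93A. Itgav itself had 19.9 and 19.1 RPKM in WT and 32.0 and 36.6 RPKM in G93A, with the groups apart. Nrros, which holds latent Tgfb1 on microglia and is listed under its older symbol Lrrc33, had 0.955 and 0.925 RPKM in WT and 2.70 and 3.35 RPKM in G93A. Both G93A libraries of these 3 genes were above both WT libraries.

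Thbs1, a matrix protein that can release the active ligand, had 1.0 and 0.659 RPKM in WT and 2.36 and 3.27 RPKM in G93A. Of the latent binding proteins that tether the ligand to the matrix, Ltbp1 had 1.37 and 1.26 RPKM in WT and 2.77 and 3.55 RPKM in G93A and Ltbp3 8.38 and 6.83 RPKM in WT and 13.1 and 13.4 RPKM in G93A, whereas Ltbp4 had 4.88 and 4.01 RPKM in WT and 5.14 and 3.97 RPKM in G93A with overlapping genotypes. The call of Ltbp3 under vehicle was lost with median-ratio scaling (log2 fold change 0.57). The membrane protease Mmp14 had 5.68 and 4.51 RPKM in WT and 10.3 and 10.6 RPKM in G93A. Itgb8, the integrin subunit of astrocytes that activates latent ligand, had 22.2 and 22.4 RPKM in WT and 27.0 and 34.4 RPKM in G93A and was called only under SD, as was the convertase Furin with 4.58 and 4.07 RPKM in WT and 5.76 and 7.04 RPKM in G93A. The difference between the comparisons was not tested, and the call of Itgb8 was lost with median-ratio scaling (0.55). Ltbp2 was called higher in both comparisons at no more than 0.144 RPKM, below the filter, and with a pseudocount of 1 RPKM in neither (0.14 and 0.13).

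Among the 3 ligand-binding proteoglycans with a mean of at least 1 RPKM, Fmod and Bgn were called higher in both comparisons. Of all names, 13.1% were higher under vehicle and 15.8% under SD. Fmod, which encodes fibromodulin, had 2.27 and 1.48 RPKM in WT and 43.7 and 65.4 RPKM in G93A, the widest gap of any pathway gene listed. Its lower G93A library had 19.25 times the level of its higher WT library. Bgn, which encodes biglycan, had 6.94 and 5.79 RPKM in WT and 12 and 14.3 RPKM in G93A. Dcn, which encodes decorin, had 5.52 and 6.98 RPKM in WT and 5.42 and 9.85 RPKM in G93A, and was called for SD in G93A and not between the genotypes. Aspn, with a mean below the filter, had between 0.734 and 0.844 RPKM.

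Of the 10 listed target transcripts with a mean of at least 1 RPKM, 5 were called higher under vehicle and 6 under SD, and 0 were lower. Of all names, 13.1% were higher and 4.34% lower under vehicle, and 15.8% and 7.85% under SD. Fn1 (fibronectin) had 5.01 and 4.90 RPKM in WT and 15.1 and 26.1 RPKM in G93A and Tgfbi, a secreted matrix protein, 2.49 and 2.13 RPKM in WT and 5.52 and 7.47 RPKM in G93A. Both genes had their groups apart. Of 6 markers of fibroblasts and meninges, 3 were called higher in G93A under vehicle and 4 under SD, and their part in the levels of these matrix genes, Fmod, Bgn and Tagln was not tested. Tagln, a smooth muscle actin-binding protein, had 2.48 and 4.01 RPKM in WT and 14.0 and 19.4 RPKM in G93A, with 1 of 5 markers of pericytes and smooth muscle called higher under vehicle and 2 of 5 under SD. The smooth muscle marker Myh11 was not called, at log2 fold changes of -0.39 and -0.44. The part of these cells in the level of Tagln was not tested. Junb, an AP-1 subunit, had 2.28 and 2.55 RPKM in WT and 8.27 and 9.38 RPKM in G93A.

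The Id genes, inhibitors of helix-loop-helix factors, are best known as targets of BMP, and TGF-beta lowers them in many cell types. Id3 had 17.6 and 19.0 RPKM in WT and 26.5 and 40.1 RPKM in G93A and was called in both comparisons, though not under vehicle with median-ratio scaling (log2 fold change 0.53) or a pseudocount of 1 RPKM (0.57). Id1 had 7.64 and 7.08 RPKM in WT and 7.84 and 6.89 RPKM in G93A and Id2 56.6 and 49.4 RPKM in WT and 55.7 and 63.2 RPKM in G93A, with overlapping genotypes. The cell cycle inhibitor Cdkn1a had 11.4 and 10.8 RPKM in WT and 16.8 and 23.9 RPKM in G93A and was called under SD. Cdkn2b (0.409 to 1.20 RPKM) and Snai1 (0.0599 to 0.243 RPKM) were called higher in both comparisons at means below the filter, and with a pseudocount of 1 RPKM Snai1 was called in neither (0.19 in both) and Cdkn2b not under SD (0.55). The remaining targets on the list, counted above but named only after their values were seen, were not called. Ctgf, a matricellular protein, had 2.67 and 3.29 RPKM in WT and 3.14 and 3.71 RPKM in G93A, with overlapping genotypes, and Acta2, the smooth muscle actin, 1.66 and 1.40 RPKM in WT and 2.03 and 1.72 RPKM in G93A. These genes also respond to other signals, and which signal their levels followed was not tested.

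Of the intracellular regulators, 1 of 14 was called higher under vehicle and 3 higher and 1 lower under SD, where the shares of all names were 13.1% higher under vehicle and 15.8% higher and 7.85% lower under SD. The gene called in both comparisons was Tgif1, a homeobox corepressor of Smads, with 1.39 and 1.38 RPKM in WT and 7.08 and 8.61 RPKM in G93A. Fkbp1a, which guards the type I receptor, had 90.6 and 95.1 RPKM in WT and 108 and 109 RPKM in G93A, and Ppm1a, a Smad phosphatase, 62.5 and 64.3 RPKM in WT and 51.5 and 49.5 RPKM in G93A. Zfyve9, which presents Smads to the receptor, had 37.6 and 40.8 RPKM in WT and 27.1 and 26.0 RPKM in G93A and was called lower under SD.

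None of the 4 other Smads with a mean of at least 1 RPKM was called. Of all names, 13.1% were higher and 4.34% lower under vehicle, and 15.8% and 7.85% under SD. Smad4, the shared partner, had 9.17 and 9.68 RPKM in WT and 10.7 and 12.2 RPKM in G93A, Smad5 9.41 and 9.44 RPKM in WT and 11.9 and 13.0 RPKM in G93A and Smad9 10.8 and 10.6 RPKM in WT and 8.82 and 8.84 RPKM in G93A. Of 10 co-receptors and related receptors, 1 was called higher in each comparison, and 1 was lower under vehicle and 2 under SD, beside the same shares. The pseudoreceptor Bambi was higher, with 0.735 and 0.819 RPKM in WT and 1.78 and 2.05 RPKM in G93A. The activin receptor Acvr2b was lower in both comparisons, with 1.66 and 1.45 RPKM in WT and 0.901 and 0.717 RPKM in G93A. The calls of Acvr2b were lost with a pseudocount of 1 RPKM, at log2 fold changes of -0.49 and -0.51. The BMP receptor Bmpr2 had 16.5 and 18.4 RPKM in WT and 11.1 and 11.6 RPKM in G93A and was called lower under SD, whereas Bmpr1a had 17.7 and 17.2 RPKM in WT and 19.4 and 23.1 RPKM in G93A and Acvr1b 15.5 and 14.7 RPKM in WT and 13.1 and 12.9 RPKM in G93A.

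**Figure D5:**
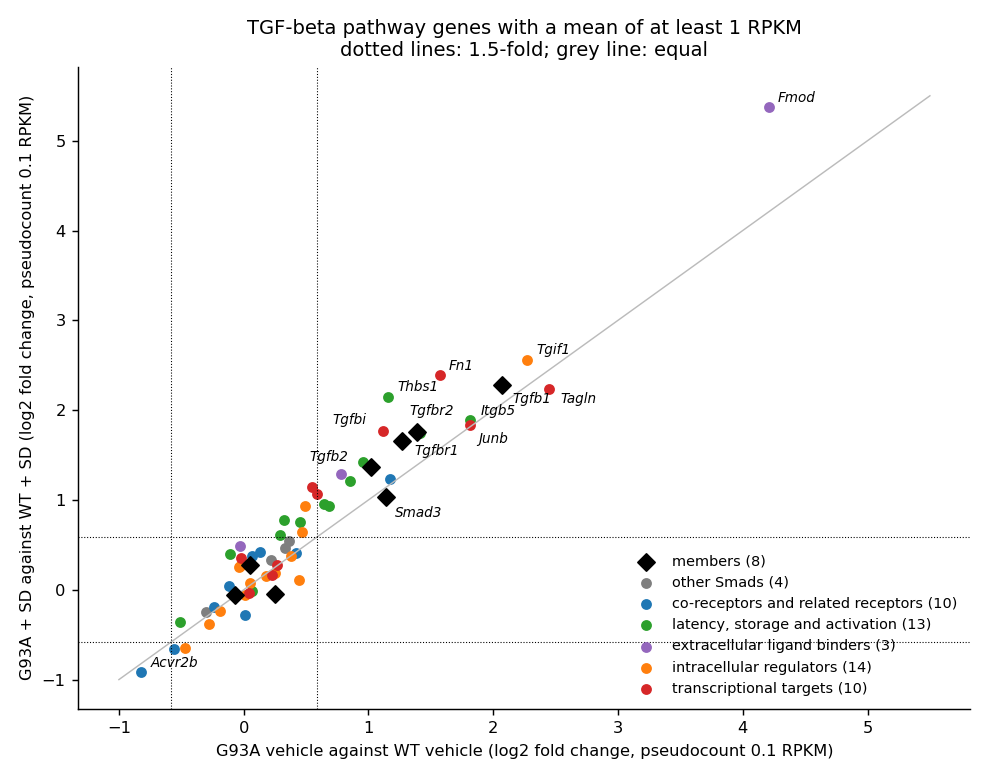
Log2 fold changes (pseudocount of 0.1 RPKM) of G93A against WT under vehicle (x axis) and under SD (y axis) for the 8 members (diamonds) and 54 other pathway genes (circles, coloured by list). The axes share no library. Fmod lies farthest out, at 4.21 and 5.37, and Acvr2b is the gene below the 1.5-fold line on both axes.

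Between SD and vehicle, 1 of the 54 was called higher in WT and 0 lower (0.732% and 1.16% of all names), and 4 were higher and 0 lower in G93A, where 1.24% of all names were higher and 0.932% lower. In WT the higher gene was Tagln, whose call was lost with a pseudocount of 1 RPKM (0.53), in the libraries between which the blood markers differed. In G93A the higher genes were Mmp2, Dcn, Fn1 and Id3, of which Id3 was lost with median-ratio scaling or a pseudocount of 1 RPKM (0.58 in both). Mmp2, a matrix protease, had 2.09 and 3.14 RPKM in WT without and with SD and 2.89 and 5.36 RPKM in G93A. Of 6 markers of fibroblasts and meninges, 2 were called higher in G93A + SD against G93A vehicle, Lum (log2 fold change 0.77) and Ogn (0.75). The list summed to 15.2 and 14.6 RPKM in WT and 19.3 and 22.0 RPKM in G93A. Pdgfra alone gave 9.81 and 9.76 RPKM of these sums in WT and 11 and 12.8 RPKM in G93A. The part of the cells on this list in these values was not tested.

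The names whose pattern over the 4 libraries was most like that of each member were taken by the distance of their centred log2 profiles. Each distance rests on 4 points and is a description. Tgfb1 was nearest to Akr1b8 (distance 0.074) and Rac2 (0.077), Tgfb2 to Il17ra (0.014) and Ddit3 (0.018), Tgfbr1 to Slc22a4 (0.034) and Fli1 (0.040) and Tgfbr2 to Lrrc33 (0.017) and Angpt1 (0.031). Smad3 was nearest to C1qtnf3 (0.079) and 1700017B05Rik (0.099). Of the members that were not called, Tgfb3 was nearest to 5430405H02Rik (0.023) and Lass6 (0.024), Smad2 to Tmem136 (0.005) and Tmem222 (0.014) and Smad7 to Fam84a (0.004) and Gramd1a (0.008).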

How the data were processed

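Total RNA of lumbar spinal cord was measured in 4 libraries, 1 per condition, with groups taken from the labels. The authors' methods describe polyA selection, 53 bp reads, alignment with STAR to GRCm38 and HTSeq counting against Ensembl genes, whereas the 23750 rows deposited are RefSeq transcripts under a header with no unit. The values deposited by the authors were taken as RPKM, since value times GENCODE M21 transcript length in kilobases gave similar library totals, from 1115448 to 1124231, near the 1e+06 that RPKM would give. The 3 columns of ratios made by the authors were not used.

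Rows of a name were averaged, and log2 fold changes used a pseudocount of 0.1 RPKM. A difference was called at 1.5-fold, and shares of names were taken over the 12987 names with a mean of at least 1 RPKM. Depth was estimated from the commonest low value multiplied by length on transcripts over 500 bases, read as 1 read pair, so read pairs are estimates. With 1 library per condition, differences between libraries and between conditions cannot be told apart.

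Genes named are the members, pathway genes called in both genotype comparisons (at most 8 per list) or in an SD comparison, up to 3 more of the highest mean per list, and the 2 nearest names per member. Ctgf and Acta2 were named in addition, after their values were seen, and Ski and Smad6 for calls that changed with the processing. The members and lists were chosen with earlier results of these data known. Some listed genes are not reported here and were left out of the lists. Older symbols were matched through RefSeq synonyms. Shared windows had 53 bases, and promoter windows, from RefSeq on GRCm38.p6, 250. Gene coordinates are from GENCODE M21 on GRCm38. Alternatives were median-ratio scaling, pseudocounts of 1 and none, a 2-fold threshold, the highest row or the sum of rows, and no filter. The software was Python (3.11.15) with pandas (2.3.3), numpy (2.4.6) and matplotlib (3.10.9).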

Additional observations from a re-analysis of the deposited data

Results flagged for a closer look

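The difference between SD and vehicle had opposite directions in the WT and the G93A pair for 5 of the 8 members and for 45.8% of all names, with 1 library on each side, so these differences were not tested. On the log2 scale, the SD difference in G93A minus that in WT was 0.21 for Tgfb1, 0.35 for Tgfb2, 0.39 for Tgfbr1, 0.37 for Tgfbr2 and 0.23 for Smad2. Of all names, 10.5% had as large a difference as Tgfbr1 and 31.2% as large a one as Tgfb1. Among the pathway genes called in an SD comparison, the direction also differed for Fn1 (0.82). Of those not called, Fmod (1.16) and Thbs1 (0.99) had larger differences of opposite direction. Fmod became called in WT with median-ratio scaling (-0.59) or no pseudocount (-0.62), and Thbs1 with no pseudocount (-0.61). Tgfb3 was higher in G93A than in WT under vehicle and lower under SD, and the value under SD minus that under vehicle was -0.30, which was not tested either.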

How the results depend on the processing

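The 5 called members were called in both genotype comparisons under each of the 6 alternatives, and 0 members were called between SD and vehicle under any. With a 2-fold threshold 4 members had both G93A libraries above both WT libraries, without Smad3, whose gap was 1.78-fold. All 160 log2 fold changes of the members under other settings stayed on their side of the threshold. The highest row and the sum of rows could not change a gene with 1 row. Among the members only Tgfbr2 has 2 rows, in a nearly constant ratio, so these settings add nothing for the members. Of 600 values of other pathway genes, 16 were no longer called and 7 became called, and no called value changed direction. The calls lost under other scaling or pseudocounts are given beside the genes above, with 2 further ones in Ski under SD (0.58 with median-ratio scaling) and in Smad6 under vehicle (0.26 with a pseudocount of 1 RPKM). With a 2-fold threshold, the pathway genes called between the genotypes numbered 10 under vehicle (17 as reported), 15 under SD (25 as reported) and 10 over both libraries of each genotype (16 as reported), and 0 were called in each SD comparison. In WT + SD against WT vehicle the count was 0 with a pseudocount of 1 RPKM, 4 with none and 2 with median-ratio scaling, against 1 as reported. No paired analysis was possible because the groups compared share only 1 replicate number. The difference between the genotypes is given once under each treatment instead. With 1 library per condition, leaving a library out removes a condition and was not run. Depth limits Tgfb1 most, with an estimated 124 read pairs in WT + SD, and the spread between mice is unknown.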
